A study of Homo sapiens with 6 samples.

Results

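The leptin receptor gene and 9 genes that act next to it were described in OVCAR8, a long-established line of human ovarian carcinoma cells. The 10 genes were chosen by symbol: LEP, LEPR, LEPROT, LEPROTL1, JAK2, SH2B1, PTPN1, PTPN11, IRS1 and IRS2, all found among the 62700 gene IDs of each count table. RNA sequencing covered 3 leptin libraries, from cells given leptin at 100 ng/ml for 24 h after a night without serum, and 3 control libraries from cells given PBS. Both groups carry the genotype label WT and come from this single cell line, with PBS as the only stated control. Whether replicates were separate cultures is not stated, and each p-value therefore reflects library-to-library spread that may be technical. The study asked which transcripts lie downstream of leptin in relation to stem-like properties.

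Leptin is a hormone made mainly by fat cells. Its receptor has no enzyme activity of its own and works through the kinase JAK2, which is bound to the inner part of the receptor. On leptin binding JAK2 phosphorylates the receptor and its partners: the adaptor SH2B1 enhances JAK2 activity, the docking proteins IRS1 and IRS2 lead to PI3-kinase, the phosphatase PTPN11 (SHP2) leads to ERK, and the phosphatase PTPN1 (PTP1B) switches JAK2 off. LEPROT and LEPROTL1 encode small membrane proteins that limit how much receptor reaches the cell surface. The receptor is made in a long form that signals fully and in short forms, and a count per gene sums them all. In bulk RNA, fewer cells expressing a gene and less of its RNA per cell cannot be told apart.

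Library totals lay between 15609425 and 18577775 counts, and 15685 genes had enough counts to be tested. Among the leptin libraries, replicate 1 was the odd one: the first principal component (49.6% of the variance) placed it at -2.15, leptin replicates 2 and 3 at 46.3 and 39.6, and the controls between -31.0 and -23.6. The 10 ovarian and epithelial markers summed to 3537 to 3942 CPM (counts scaled to the TMM-adjusted library size) with leptin and 3181 to 3466 CPM in controls. Among them PAX8, a lineage factor, averaged 364 CPM in both groups and the keratin gene KRT8 2321 CPM with leptin and 2138 CPM in controls. The keratin gene KRT19 was lower, at 38.7 CPM with leptin and 102 CPM in controls (log2 fold change -1.40 ± 0.11, SE, edgeR adjusted p = 0.000139), and KRT7 stood at 547 CPM with leptin and 332 CPM in controls (0.72 ± 0.30, SE, edgeR adjusted p = 0.166). MUC16, which encodes the serum marker CA-125, was near 0 (0.138 CPM with leptin, 0.159 CPM in controls), as was the cadherin gene CDH1 (0.731 CPM with leptin, 0.247 CPM in controls). Of 6 immune markers, PTPRC and CD3E had no count, and the 6 together summed to at most 0.231 CPM with leptin and 0.264 CPM in controls. Of 6 markers of adipocytes, the cells that make leptin, LPL had no count in any library and ADIPOQ none with leptin. These summed to 29.2 to 56.4 CPM with leptin and 19.9 to 26.8 CPM in controls, nearly all from CFD (43.4 CPM with leptin, 23.5 CPM in controls, edgeR adjusted p = 0.0388). Fibroblast markers, mostly COL1A1, summed to 356 to 519 CPM with leptin and 467 to 662 CPM in controls. Of these POSTN was lower, at 0.639 CPM with leptin and 5.75 CPM in controls (log2 fold change -3.17 ± 0.32, SE, edgeR adjusted p = 0.00109), and DCN stood at 0.237 CPM with leptin and 1.06 CPM in controls (-2.11 ± 0.66, SE, edgeR adjusted p = 0.0658). Endothelial markers summed to 1.87 to 3.86 CPM with leptin and 3.27 to 5.09 CPM in controls. The part of these shifts in the results below was not tested.

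LEPR and LEPROT start close together in the genome. In the authors' files (hg38), LEPR covers chromosome 1 from 65420652 to 65641559 and LEPROT from 65420587 to 65436007, both on the plus strand. Their exons share 165 bases in 2 blocks, 89 and 76 bases long. These are 1.45% of the exon bases of LEPR and 3.15% of those of LEPROT. Read pairs that could not be assigned to 1 of these genes were left out for both, which can lower both counts. By the same files LEP lies on chromosome 7 from 128241278 to 128257629, JAK2 on chromosome 9 from 4984390 to 5129948, PTPN1 on chromosome 20 from 50510321 to 50585241 and PTPN11 on chromosome 12 from 112418351 to 112509918, all on the plus strand. IRS1 lies on chromosome 2 from 226731312 to 226799820 and IRS2 on chromosome 13 from 109752695 to 109786583, both on the minus strand.

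**Figure D1:**
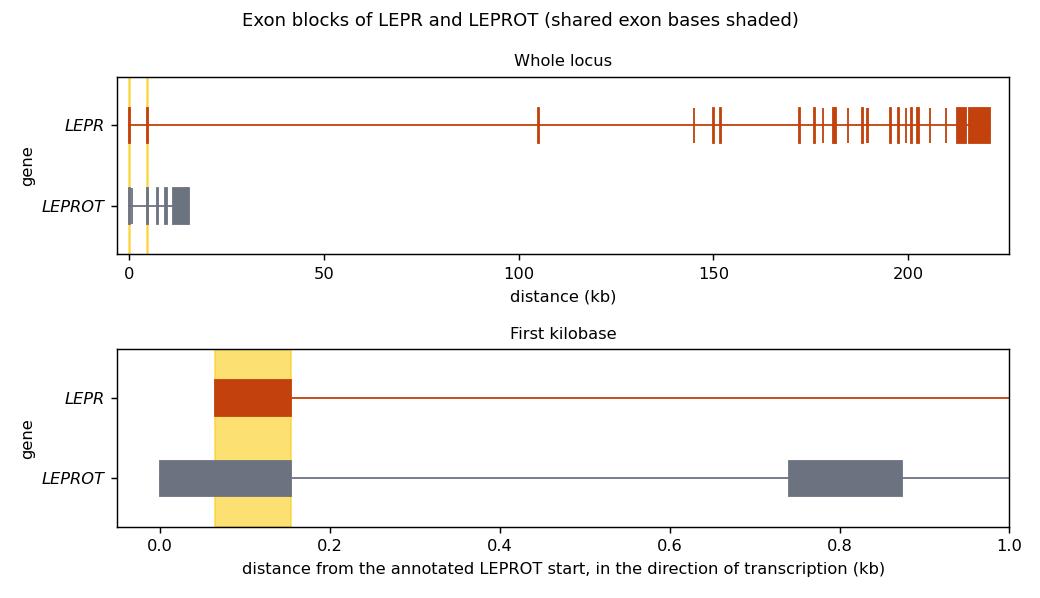
Exon blocks (boxes) of LEPR and LEPROT along the distance from the annotated LEPROT start in kb, for the whole locus (top) and the first kilobase (bottom). The yellow bands are the 165 shared exon bases, both near the start, while the other LEPR exons lie downstream of LEPROT.

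RefSeq (GRCh38.p14) lists 2 starts for LEPR, 16 bases apart, and 1 start for LEPROT, which is the same base as the downstream LEPR start. The 250 bases before a start are shown for this shared start, because both genes have it in RefSeq, and for the upstream start of SH2B1, the member that passed the test below. In the authors' files LEPROT starts at 65420587 and LEPR at 65420652, both inside the window shown. The end of that window is thus exon in those files, and the GC boxes nearest its end lie in LEPROT exon bases. Capitals mark GC boxes, the letters GGGCGG or CCGCCC on either strand, overlaps counted. They are binding motifs of SP-family factors.
LEPR and LEPROT, chr1:65420418-65420667, plus strand: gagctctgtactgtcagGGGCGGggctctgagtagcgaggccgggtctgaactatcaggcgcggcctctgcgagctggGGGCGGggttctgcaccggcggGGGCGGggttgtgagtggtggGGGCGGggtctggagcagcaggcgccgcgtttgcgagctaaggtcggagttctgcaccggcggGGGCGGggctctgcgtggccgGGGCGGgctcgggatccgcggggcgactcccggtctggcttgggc
SH2B1, chr16:28846356-28846605, plus strand: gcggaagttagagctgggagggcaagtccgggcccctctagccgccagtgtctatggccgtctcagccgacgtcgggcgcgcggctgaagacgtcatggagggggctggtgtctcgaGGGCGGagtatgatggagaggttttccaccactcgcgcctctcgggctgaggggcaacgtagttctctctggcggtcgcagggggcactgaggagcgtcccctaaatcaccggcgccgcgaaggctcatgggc

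The shared LEPR and LEPROT window held 6 GC boxes and the SH2B1 window 1. Of 34943 RefSeq windows of 250 bases, 42.55% held at least 1 and 2.2% at least 6. These shares are over windows of any GC content, with a median of 58% G and C. The shared window has 73.6%, more than 86.9% of windows, and the SH2B1 window 66.4%. A comparison with windows of like GC content was not made. The STAT motif TTCNNNGAA was found in none of the 13 windows of the 8 members with an entry, and in 6.56% of all windows. The 13 count the shared window under both genes and include overlapping windows of LEPR, while the windows of the background were each counted once. So few windows cannot show a difference from that share. These matches are descriptions of the letters only. Windows of LEPROTL1 and PTPN11 were not used here.

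The ligand gene LEP had 0 counts in all 6 libraries. Taking 3 counts as the most that a count of 0 allows, its level was below 0.173 to 0.200 CPM in the leptin libraries and below 0.158 to 0.186 CPM in the controls. This limit covers counting error only.

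LEPR was expressed at a low level. It stood at 14.8, 9.29 and 10.8 CPM in leptin replicates 1, 2 and 3, against 16.6, 14.9 and 15.003 CPM in control replicates 1, 2 and 3. Each leptin library was below each control, but leptin replicate 1 missed the lowest control by little. The log2 fold change of leptin over control was -0.41 ± 0.18 (SE, n = 3 each), with a 95% interval of -0.80 to -0.02. This missed the threshold of 0.05 in edgeR's quasi-likelihood test with Benjamini-Hochberg adjustment over all tested genes (adjusted p = 0.165). The libraries held 139 to 314 counts for LEPR, so counting alone gives a coefficient of variation of 7.204% with leptin and 6.11% in controls, where 24.5% with leptin and 5.96% in controls were observed.

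LEPROT had more counts than LEPR in each library. It stood at 98.8, 67.8 and 70.0 CPM in leptin replicates 1, 2 and 3, against 103, 90.9 and 93.4 CPM in the controls. Leptin replicate 1 lay within the control range and leptin replicates 2 and 3 below it. The log2 fold change was -0.28 ± 0.15 (SE, n = 3 each; 95% interval -0.60 to 0.04; edgeR adjusted p = 0.242).

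Of the counts of both genes together, LEPR held 13.0%, 12.05% and 13.4% in leptin replicates 1, 2 and 3 and 13.8%, 14.1% and 13.8% in the controls. The means were 12.8 ± 0.691% with leptin and 13.9 ± 0.151% in controls (SD, n = 3 each). Each leptin share was below each control share (exact two-sided permutation p = 0.1, the smallest that 3 libraries against 3 can give). The 95% Wilson intervals, which cover counting error only, were 10.3% to 14.05% in leptin replicate 2, the lowest share, and 12.5% to 15.8% in control replicate 2, the highest. Per length of exon, LEPROT was on average 14.8 times LEPR with leptin and 13.4 times in controls.

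The pattern of LEPR over the 6 libraries was compared with that of other genes, as the root mean square difference of centred log2 CPM. Among 10670 other genes, the closest were PRDM2 (0.02), DDAH2 (0.02) and BRD8 (0.03), on the log2 scale. PRDM2 stood at 40.8, 26.5 and 30.7 CPM with leptin and 46.3, 42.7 and 42.1 CPM in controls. LEPROT, at 0.08, ranked 59 when set among these genes. Counting alone gives LEPR a coefficient of variation of 7.20% with leptin and 6.11% in controls. Whether these ranks differ beyond that counting error was not tested. All 6 points share the same libraries, so this describes likeness over 6 libraries and no more.

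LEPROTL1, on chromosome 8, was nearly level. It stood at 45.0, 47.6 and 43.9 CPM with leptin and 48.3, 49.3 and 46.3 CPM in controls. The log2 fold change was -0.08 ± 0.10 (SE; 95% interval -0.30 to 0.15; edgeR adjusted p = 0.665). Its exons share 254 bases with DCTN6 on the same strand and 323 bases with MBOAT4 on the other strand, 10.7% of its exon bases in all, the largest such share among the 10 genes.

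**Figure D2:**
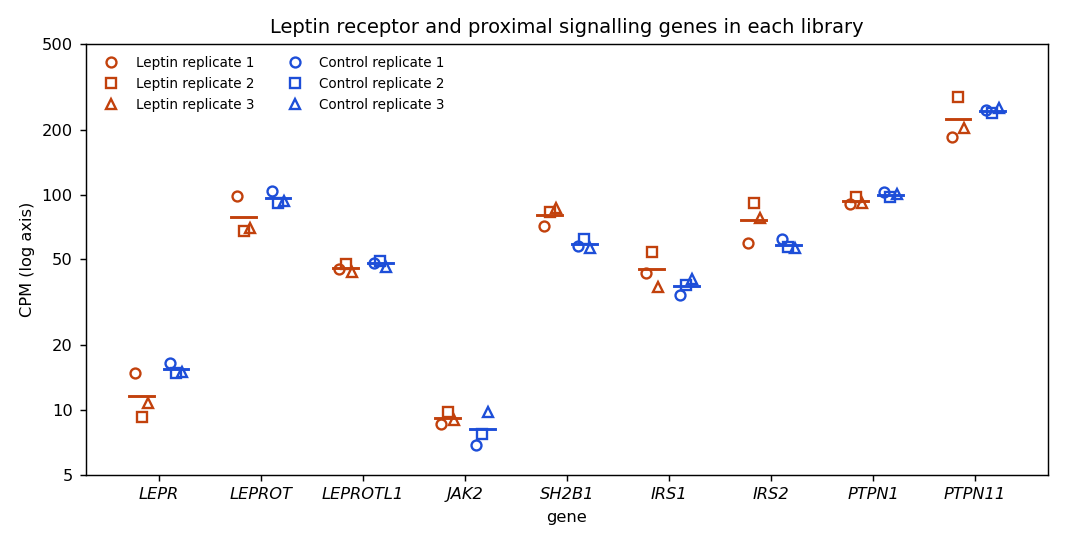
CPM on a log axis for the 9 members with counts, with the 3 leptin libraries (orange) left of the 3 controls (blue), a symbol for each replicate and a bar at each mean. For SH2B1 the leptin libraries, at 71.1 to 87.1 CPM, all lie above the controls, at 56.7 to 61.9 CPM, and for LEPR all lie below; the groups overlap for the other 7 genes.

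JAK2, the kinase, was also low. It stood at 8.65, 9.82 and 8.97 CPM with leptin and 6.85, 7.76 and 9.78 CPM in controls. Control replicate 3 overlapped the leptin libraries. Leptin over control gave a log2 fold change of 0.17 ± 0.18 (SE; 95% interval -0.23 to 0.57; edgeR adjusted p = 0.589).

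SH2B1, the adaptor that enhances JAK2 activity, was the 1 member that passed the test, as higher with leptin. It stood at 71.1, 83.1 and 87.1 CPM in leptin replicates 1, 2 and 3, against 57.5, 61.9 and 56.7 CPM in the controls, and the groups did not overlap. The means were 80.4 ± 8.28 CPM with leptin and 58.7 ± 2.82 CPM in controls (SD, n = 3 each). The fitted ratio was 1.37, a log2 fold change of 0.45 ± 0.11 (SE; 95% interval 0.21 to 0.70; edgeR adjusted p = 0.0309). SH2B1 lies on chromosome 16 from 28846600 to 28874212 (hg38, plus strand). An antisense gene overlaps 2.51% of its exon bases and had 0 to 5 counts a library.

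The call was lost after removal of GC trends and without most single libraries. The longest SH2B1 transcript is 60.7% G and C, and the 853 tested genes within 1 percentage point of it had a median log2 fold change of 0.25. After removal of each library's GC trend it stood at a log2 fold change of 0.21 ± 0.10 (SE; edgeR adjusted p = 0.226). The call was lost in 5 of 6 fits that left out 1 library, with edgeR adjusted p between 0.0604 (without leptin replicate 2) and 0.164 (without control replicate 3), and kept without leptin replicate 1 (0.000687). In the fits that lost the call the log2 fold change stayed between 0.39 and 0.49. Calls over all tested genes also fell in these fits. They went from 1538 to between 115 (without control replicate 1) and 788 (without leptin replicate 2).

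Among the docking proteins for PI3-kinase, IRS2 stood at 59.3, 91.7 and 78.0 CPM in leptin replicates 1, 2 and 3, against 61.9, 57.2 and 56.7 CPM in the controls. Leptin replicates 2 and 3 lay above all controls and leptin replicate 1 within their range. Its log2 fold change was 0.38 ± 0.15 (SE; 95% interval 0.06 to 0.71; edgeR adjusted p = 0.122). An antisense gene shares 115 of its exon bases and had 0 counts. Its transcript has 58.7% G and C, and genes of like content had a median log2 fold change of 0.18. The value for IRS2 after removal of the GC trend was 0.21 ± 0.15 (SE; edgeR adjusted p = 0.439).

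IRS1, the related docking protein, stood at 43.2, 54.0 and 37.4 CPM with leptin and 34.1, 38.0 and 40.6 CPM in controls. Leptin replicate 3 lay within the control range and the other leptin libraries above it. The change was 0.26 ± 0.14 on the log2 scale (SE; 95% interval -0.06 to 0.57; edgeR adjusted p = 0.272). It was 0.27 with the GC trend removed, the transcript having 50.7% G and C.

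PTPN1, the phosphatase that acts on JAK2, stood at 90.4, 97.8 and 91.6 CPM with leptin and 102, 96.9 and 101 CPM in controls. The groups overlapped, and the log2 fold change of -0.10 ± 0.10 (SE; 95% interval -0.32 to 0.12) did not pass (edgeR adjusted p = 0.552). An antisense gene shares 138 of its exon bases and had 1 to 6 counts a library.

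PTPN11, the phosphatase that relays to ERK, had the most counts of the 10 genes. It stood at 185, 283 and 204 CPM in leptin replicates 1, 2 and 3, against 246, 239 and 251 CPM in the controls. Leptin replicate 2 lay above all controls and leptin replicates 1 and 3 below them, so the mean averages shifts in both directions. Its log2 fold change was -0.13 ± 0.15 (SE; 95% interval -0.46 to 0.20; edgeR adjusted p = 0.613). The observed coefficient of variation was 23.3% with leptin and 2.38% in controls, where counting alone gives 1.66% with leptin and 1.54% in controls. The ribosomal protein gene RPL6, on the opposite strand and with 10853 to 14568 counts a library, shares 111 exon bases with PTPN11. Read pairs there that could not be assigned to 1 of these genes were counted for neither. Processed pseudogenes of PTPN11, 5 in the tables, had 0 to 10 counts each, and reads shared with such copies were not counted.

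**Figure D3:**
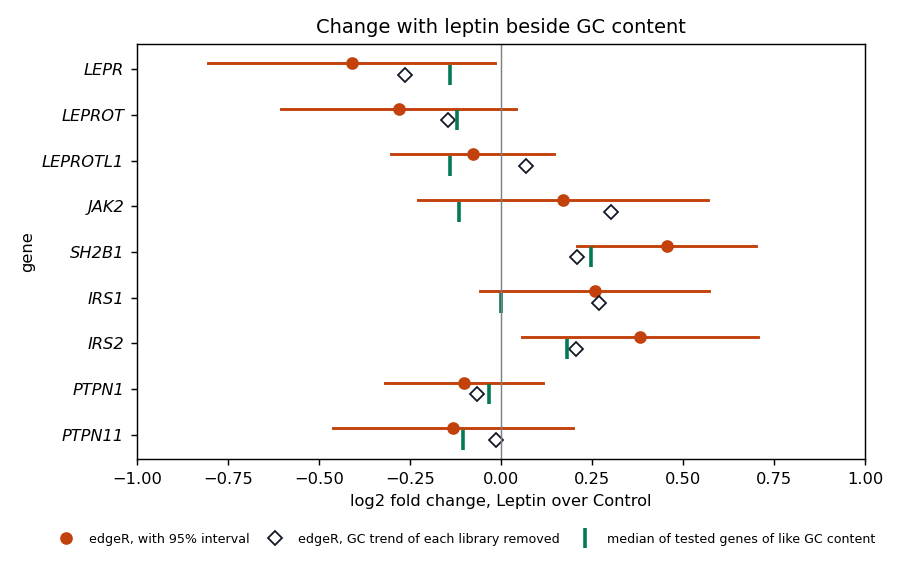
Log2 fold change of leptin over control for the 9 tested members: the edgeR estimate with its 95% interval (orange), the estimate after removal of each library's GC trend (diamond), and the median of tested genes within 1 percentage point of the gene's GC content (green bar). The SH2B1 estimate of 0.45 lies above the green bar at 0.25, a median taken before GC removal. After removal the diamond lies at 0.21.

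Across the members, 9 of 10 passed the filter on low counts and 1 of these 9 passed the test, SH2B1, in a comparison in which 9.81% of all 15685 tested genes passed, 5.71% as higher and 4.09% as lower. At an unadjusted p under 0.05, edgeR had 2 members higher (SH2B1 and IRS2) and 1 lower (LEPR), where 27.6% of all tested genes were under it, 15.4% as higher and 12.2% as lower. DESeq2 also called SH2B1 (adjusted p = 0.00873) and no other member, where 14.1% of the genes it tested passed, 8.52% as higher and 5.6% as lower. The groups did not overlap for 2 of the 9, LEPR and SH2B1, where 32.2% of all tested genes did not overlap. Both counts are near the background. The members' log2 fold changes ran from -0.41 to 0.45, with a median of -0.08 against 0.01 for all tested genes.

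**Figure D4:**
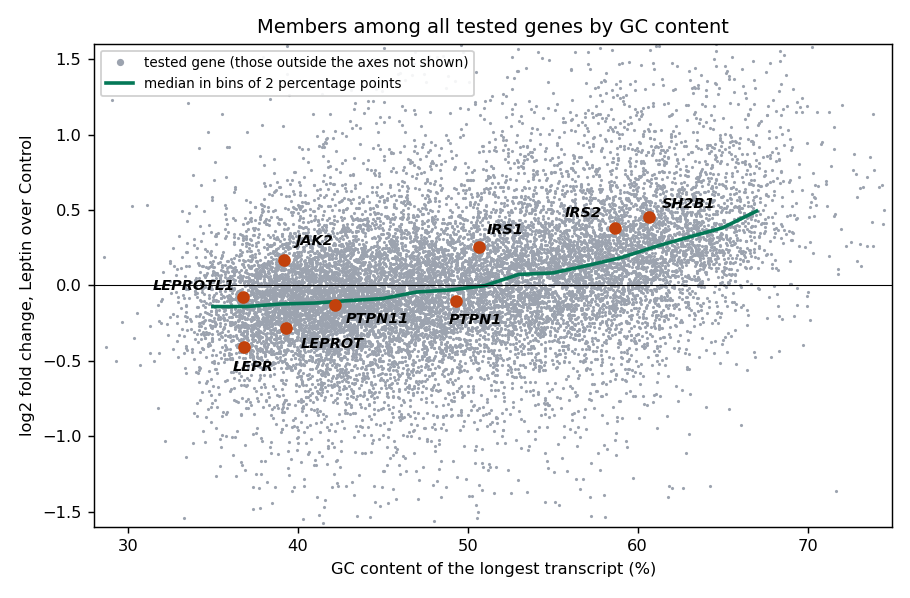
Log2 fold change of leptin over control against the GC content of the longest transcript (%). Shown are all tested genes with a known GC content (grey, axes cut) and the 9 members (orange). The green line joins the medians of tested genes in fixed bins of GC content. The GC-rich members IRS2 and SH2B1, at 58.7% and 60.7%, lie at 0.38 and 0.45 and the GC-poor LEPR and LEPROT, at 36.8% and 39.3%, at -0.41 and -0.28, on the sides to which the median also runs, while JAK2, at 39.2%, lies at 0.17, on the other side.

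Fold changes over all tested genes ran with GC content (Spearman's rho 0.39 across 15249 genes, which are not independent replicates). Tested genes of the GC content of LEPR had a median log2 fold change of -0.14, and those of the GC content of LEPROT -0.12. For JAK2, whose longest transcript has 39.2% G and C, that median was also -0.12, and JAK2 itself lay at 0.17. With the GC trend removed LEPR stood at -0.26 ± 0.18 and LEPROT at -0.15 ± 0.14 (SE; edgeR adjusted p = 0.410 and 0.576). JAK2 moved away from 0, to 0.30 ± 0.18 (SE; edgeR adjusted p = 0.349), and LEPROTL1 turned to 0.07 ± 0.10 (SE; edgeR adjusted p = 0.723). In that edgeR fit 0 members passed, where 5.53% of tested genes passed, 2.72% as higher and 2.81% as lower. Before adjustment 0 members were under 0.05 either, where 23.3% of tested genes were under it, 12.4% as higher and 10.8% as lower.

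Leaving out leptin replicate 1 changed the calls among these genes most. Without it 4 members passed: LEPR (log2 fold change -0.63 ± 0.16, SE, edgeR adjusted p = 0.00598) and LEPROT (-0.49 ± 0.10, 0.00160) were lower, and SH2B1 (0.53 ± 0.10, 0.000687) and IRS2 (0.52 ± 0.10, 0.00122) were higher. In the same fit 29.6% of all tested genes passed, 16% as higher and 13.5% as lower. With the GC trend removed as well, LEPR (-0.48), LEPROT (-0.34) and IRS2 (0.35) passed (edgeR adjusted p = 0.0306, 0.0147 and 0.0306) and SH2B1 (0.26) did not (0.0503), where 24.9% of tested genes passed, 12.9% as higher and 12.1% as lower. Without any other single library, no member passed, where 115 to 788 of all tested genes did. The number tested in each of those fits is not given here, so these are counts and not shares. What sets leptin replicate 1 apart was not tested.

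**Figure D5:**
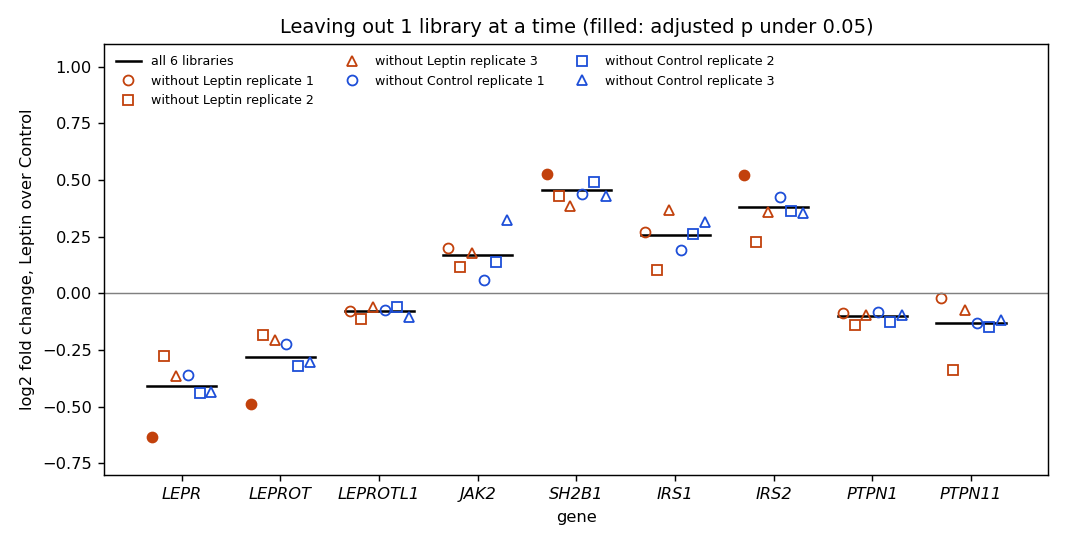
Log2 fold change of leptin over control for the 9 tested members with all 6 libraries (black bar) and with each library left out (orange for leptin, blue for control; symbols give the replicate, filled where the edgeR adjusted p was under 0.05). Filled symbols are found for LEPR, LEPROT, SH2B1 and IRS2, at -0.63, -0.49, 0.53 and 0.52, each without leptin replicate 1.

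Levels can be compared between genes per exon length, as TPM (counts divided by exon length and scaled to the library). With leptin the order was PTPN1 at 91.6 ± 5.93 TPM, PTPN11 at 66.1 ± 16.6, LEPROT at 59.9 ± 14.1, SH2B1 at 44.6 ± 3.82, IRS2 at 37.1 ± 8.12, LEPROTL1 at 33.4 ± 2.35, IRS1 at 17.8 ± 3.81, JAK2 at 4.59 ± 0.385 and LEPR at 4.06 ± 1.046 TPM (mean ± SD, n = 3). In controls it was PTPN1 at 101 ± 3.08 TPM, LEPROT at 74.9 ± 4.89, PTPN11 at 74.6 ± 2.30, LEPROTL1 at 36.3 ± 0.866, SH2B1 at 33.6 ± 1.48, IRS2 at 29.4 ± 1.30, IRS1 at 15.3 ± 1.44, LEPR at 5.57 ± 0.310 and JAK2 at 4.21 ± 0.812 TPM (mean ± SD, n = 3). With leptin the libraries of PTPN11 and LEPROT, of SH2B1 and IRS2, of IRS2 and LEPROTL1, and of JAK2 and LEPR overlapped. In controls those of LEPROT and PTPN11 overlapped, and no other neighbours did. Receptor and kinase were the least abundant of the 9 detected genes in both groups. Among 16559 protein-coding genes with a count, LEPR ranked 10490 with leptin and 9927 in controls, and JAK2 10280 with leptin and 10434 in controls. SH2B1 ranked 3767 with leptin and 4692 in controls, and PTPN1 2005 with leptin and 1811 in controls.

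The other genes of the pathway were read from 7 lists of 91 genes, 86 of which were tested. Of these 86, 3 rose and 0 fell at an edgeR adjusted p under 0.05: SOCS2, SH2B2 and TSC2. Of all tested genes 5.71% rose and 4.09% fell. At an unadjusted p under 0.05 edgeR had 10 of the 86 higher and 3 lower, where 15.4% of all tested genes were higher and 12.2% lower. The 86 had a median log2 fold change of 0.03, and 11 did not overlap between groups on the higher side and 6 on the lower, where 16% of all tested genes did so on the higher side and 16.2% on the lower. In these lists DESeq2 called 5 genes higher (the 3 above, MAP2K2 and STK11) and 1 lower, JAK1. Of all genes that DESeq2 tested, 8.52% were called higher and 5.6% lower. From the lists limma-voom called SOCS2 alone, where it called 1316 of the 15685 tested genes. With the GC trend removed edgeR called SOCS2 higher and the kinase gene AKT1 lower, where 2.72% of all tested genes were higher and 2.81% lower. Without that removal AKT1 had a log2 fold change of -0.13 ± 0.11 (SE, edgeR adjusted p = 0.477). Neither DESeq2 nor limma-voom called AKT1. JAK1 and AKT1 were named after their values were seen.

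In the JAK-STAT arm, 1 of 11 tested genes rose and 0 fell (median log2 fold change 0.05), where 5.71% of all tested genes rose and 4.09% fell. SOCS2, a feedback suppressor of cytokine signalling, stood at 18.0, 19.8 and 23.5 CPM with leptin and 10.9, 11.8 and 9.78 CPM in controls. The groups did not overlap, with a log2 fold change of 0.91 ± 0.15 (SE; edgeR adjusted p = 0.00725), and 0.98 with the GC trend removed (edgeR adjusted p = 0.00801). It missed the threshold without control replicate 1 (log2 fold change 0.92, edgeR adjusted p = 0.0613) and without control replicate 3 (0.85, 0.0597).

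Among relatives of SH2B1, of the IRS proteins and of the phosphatases, 1 of 12 tested genes rose and 0 fell (median 0.03). The shares of all tested genes were 5.71% and 4.09%. SH2B2, an adaptor of the same family as SH2B1, stood at 6.803, 16.6 and 17.0 CPM in leptin replicates 1, 2 and 3, against 5.96, 6.15 and 4.38 CPM in the controls. Leptin replicate 1 lay just above the controls and the other 2 leptin libraries far above. This gave a log2 fold change of 1.29 ± 0.31 (SE; edgeR adjusted p = 0.0284). After GC removal it was 0.71 (edgeR adjusted p = 0.0951), limma-voom gave an adjusted p of 0.0709, and among the fits without 1 library it passed only without leptin replicate 1, with log2 fold changes of 1.07 to 1.37 in the others. SH2B3, the family's other member, stood at 91.8 CPM with leptin and 109 CPM in controls (log2 fold change -0.25 ± 0.11, SE, edgeR adjusted p = 0.175).

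In the PI3-kinase arm, 1 of 18 tested genes rose and 0 fell (median -0.01), where 5.71% of all tested genes rose and 4.09% fell. TSC2, a brake on mTORC1, stood at 121, 163 and 127 CPM with leptin and 97.3, 103 and 98.4 CPM in controls (log2 fold change 0.46 ± 0.13, SE, edgeR adjusted p = 0.0434). After removal of the GC trend TSC2 stood at 0.23 on the log2 scale (edgeR adjusted p = 0.286), limma-voom gave an adjusted p of 0.0511, and among the fits without 1 library it passed only without leptin replicate 1, with log2 fold changes of 0.32 to 0.51 in the others.

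In the other 4 lists 0 genes passed edgeR's test after adjustment, and at an unadjusted p under 0.05 there were 5 higher and 1 lower (all tested genes: 15.4% higher and 12.2% lower). Of 16 tested RAS-ERK genes (median 0.01), the kinase gene MAP2K2 had the smallest adjusted p (0.104, edgeR; log2 fold change 0.45 ± 0.16, SE). Of 12 genes of receptor turnover and trafficking (median 0.01) it was RNF41, which encodes a ubiquitin ligase (edgeR adjusted p = 0.0940; log2 fold change 0.37 ± 0.13, SE). Of 10 AMPK genes (median 0.10) it was the kinase gene STK11 (edgeR adjusted p = 0.0539; log2 fold change 0.64 ± 0.19, SE), at 229, 413 and 379 CPM with leptin and 220, 233 and 204 CPM in controls. Of 7 tested genes for other receptors that couple to JAK2 or IRS proteins (median 0.03) it was IFNGR1 (edgeR adjusted p = 0.290; log2 fold change -0.23 ± 0.13, SE).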

How the data were processed

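The authors deposited a table of raw counts (read pairs per gene) for each library. Per the file headers, featureCounts 2.0.1 ran on GENCODE release 44 exons, ignoring strand although the labels' protocols name a directional kit, and skipping pairs that map to several places or to several genes. The submitters' processing notes name featureCounts 1.5.0-p3, DESeq2, HISAT2 2.0.5 and hg38. Trimming is not given in the sources used here. All 62700 IDs matched a symbol. Libraries of 1 group differed beyond sampling noise (chi-square per gene 5.24 to 45.4), so each library counted as 1 sample.

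The test was edgeR 4.0.16 in R 4.3.3: filterByExpr (minimum count 10, minimum total 15), TMM scaling, robust quasi-likelihood fits on all 6 libraries, no replicate block, Benjamini-Hochberg adjustment over all tested genes (threshold 0.05). Standard errors follow from the fold change and the F statistic. TPM used the deposited exon lengths. Alternatives were DESeq2 1.42.0, limma-voom (limma 3.58.1), other scalings and filters, a replicate block, removal of GC trends (lowess, span 0.3, on the longest GENCODE 29 transcript, known for 97.2% of tested genes) and leaving out each library. GC removal together with leaving out a library was added after seeing the data. The edgeR, blocked, GC-removed, limma-voom and DESeq2 fits were also run on simulated data. These held no library set apart like leptin replicate 1, and their planted changes were larger than that of SH2B1. Their outcome is not used here. The members and lists were chosen with earlier results of these data known. Named are the members, genes sharing exon bases with them where described, up to 4 called genes a list (in a list without one the gene of smallest adjusted p), and the 3 genes most like LEPR among those with a mean CPM of at least 5; SH2B3, JAK1, AKT1 and the markers KRT7, KRT19, POSTN and DCN were named after their values were seen. Figures used Python 3.11.15 and matplotlib 3.10.9.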

Additional observations from a re-analysis of the deposited data

How the results depend on the processing

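The 1 member called, SH2B1, was also called with DESeq2, limma-voom, other scalings and a filter at a mean CPM of 1. With no filter on low counts 2 members passed, both higher (SH2B1 and IRS2), and 2437 genes in all. That fit tested every gene with at least 1 count, so its total is not on the same base as the others. Of the 62700 gene IDs, 29872 had no count in any library. A stricter threshold of 0.01, removal of the GC trend, and removal plus a replicate block each gave 0 members. Leaving out 1 library gave 0 to 4 members (0 to 2 higher, 0 to 2 lower), and 0 to 3 with the GC trend removed too. Of the pathway genes 3 passed as tested, 6 with DESeq2, 1 with limma-voom, 6 with no filter, 1 at an adjusted p under 0.01 and 0 to 18 in the leave-outs. The 4 members and the 18 pathway genes passed without leptin replicate 1, where 29.6% of all tested genes passed. That share was 9.81% as tested, 14.1% with DESeq2 and 5.53% with the GC trend removed. Over all tested genes 1538 became 2437 with no filter, 274 at the threshold of 0.01, 868 after removal of the GC trend, 943 with that and a replicate block, and 115 to 4761 in the leave-outs. LEPROTL1 turned positive (log2 fold change) with the GC trend removed (0.0670; 0.0675 with the replicate block too). Removal plus leaving out control replicates 1, 2 and 3 gave it 0.0518, 0.102 and 0.0431, and leptin replicates 1, 2 and 3 gave 0.0707, 0.0442 and 0.0872. PTPN11 turned positive with removal without control replicate 3 (0.00796), leptin replicate 1 (0.109) and leptin replicate 3 (0.0411). No other member or called pathway gene changed sign. Same-numbered leptin and control libraries had correlations of deviations of -0.0489, 0.0147 and -0.109, and the other pairs -0.0525 to 0.101. The labels do not say whether libraries were paired, and values from 3 libraries a group cannot settle it. With the replicate block 1 member, 2 pathway genes and 1303 genes in all passed, and TSC2 did not (edgeR adjusted p = 0.0514). A total-count scaling shifted the median log2 fold change of all genes by -0.05. The counts of LEPR and JAK2, 125 to 314 a library, limit what can be seen for them. Leaving out a library also leaves fewer samples.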
